A study of Rattus norvegicus and Mus musculus with 22 samples.

Results

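The genes described here encode the subunits and complex I assembly factors of the mitochondrial respiratory chain and ATP synthase. They were taken by symbol from each of 4 count tables, ignoring case: symbols starting with mt-nd, mt-co, mt-cyb or mt-atp for the mitochondrial genome, and Nduf followed by a, b, c, s or v, Sdha to Sdhd, Uqcr, Cox4 to Cox8 or Atp5 for the nucleus. With genes at 0 in every library of a table left out, 13 mitochondrially encoded (mt) and 93 nuclear genes were used in day 7 lung, of 17899 genes with counts. Day 56 lung gave 13 and 93 of 17989 genes, rat lung CD4 cells 13 and 92 of 16502, and mouse splenic CD4 cells 12 and 92 of 15115.

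The respiratory chain sits in the inner mitochondrial membrane. Complex I (NADH dehydrogenase) and complex II (succinate dehydrogenase) pass electrons to complex III and from there through cytochrome c to complex IV (cytochrome oxidase), which reduces oxygen, and complex V (ATP synthase) uses the resulting proton gradient to make ATP. Complexes I, III, IV and V are built from products of both genomes, while complex II is wholly nuclear, and the mt genes are read as long transcripts from both strands that are cut into single messages. Several nuclear subunits of complex IV have a common isoform and another that is used in muscle, lung, testis or under low oxygen.

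Rat samples were of the Sugen-Hypoxia model of pulmonary hypertension, which combines a VEGF receptor inhibitor with low oxygen, and all 16 rat libraries carry that treatment, including the wild-type (WT) ones. IL6KO rats, labelled as lacking the cytokine interleukin 6, were set beside WT rats, with 3 whole-lung libraries of each genotype at day 7 and again at day 56. From day 7 lungs there were also 2 libraries of each genotype from CD4-positive cells separated by MACS, which uses magnetic beads. Splenic CD4+ cells of 3 mice carrying the Ai14 reporter and SM22alpha-Cre were separated by FACS into fractions with and without tdTomato, which marks a history of Cre under this smooth muscle promoter, not present expression of it. Untreated rats were not analysed here, and the labels give no rat strain, age or sex and do not say whether rat libraries of a group came from separate animals. The p-values in rats then measure only the spread between these libraries.

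Libraries of day 7 lung held 15011692 to 23590070 counts and those of day 56 lung 14415060 to 22961232. Lung CD4 cells had 11477533 to 12930732 counts per library, and splenic cells 8737138 to 12560401. Il6 had 8 and 17 counts in the CD4 cells of IL6KO rats, against 48 and 20 in those of WT rats. In whole lung it had 8, 5 and 2 counts in IL6KO and 5, 11 and 6 in WT libraries at day 7, and 0, 2 and 3 in IL6KO and 6, 6 and 5 in WT libraries at day 56. The labels do not say which part of Il6 was removed, so these counts do not check the genotypes. A list of 10 T cell genes, with Cd4 and the Cd3 chains, summed to 2987 to 3278 CPM (counts scaled to the same total in every library) in IL6KO and to 3488 to 3559 CPM in WT lung CD4 cells, against 53.8 to 90.6 CPM in day 7 whole lung. Macrophage markers were higher in the CD4 preparations than in lung, at 2281 to 2557 CPM in IL6KO and 1406 to 1439 CPM in WT cells, against 613 to 724 CPM in day 7 lung. In splenic CD4 cells the T cell list summed to 5899 to 6181 CPM and the macrophage list to 19.1 to 59.1 CPM.

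The mt genes lie so close together that some share bases, which bears on how reads are counted. In the mouse (GRCm38, GENCODE annotation) the end of mt-Atp8 and the start of mt-Atp6 share 43 bases on the plus strand, chrM:7927-7969, and the end of mt-Nd4l and the start of mt-Nd4 share 7 bases, chrM:10167-10173. Both stretches are printed because reads from them belong to either gene, with the start codon of the second gene in capitals.
mt-Atp8 and mt-Atp6: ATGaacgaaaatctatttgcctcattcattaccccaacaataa
mt-Nd4l and mt-Nd4: ATGctaa
mt-Nd5 and mt-Nd6 overlap by 14 bases at chrM:13552-13565 on opposite strands, and whether the counting used strand is not given in the sources used here. The shortest are mt-Atp8 with 204 bases, mt-Nd4l with 297 and mt-Nd3 with 348. The rat mitochondrial sequence was not used here.

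Nuclear genes of the chain are known for promoters without a TATA box and for binding of NRF1 and of ETS-family factors such as GABPA. RefSeq rat promoters (GRCr8, the 250 bases before each annotated start) matched 81 of the nuclear symbols. The NRF1 core, searched as GCGCA, any base and GCGC, was present on either strand in 12 of the 81 (14.8%), against 3.75% of 33469 rat promoters, and the ETS core CCGGAAG in 21 (25.9%), against 7.27%. The 81 are 1 promoter per symbol, while the 33469 are all promoter entries of that length, so the sets are not alike. The 3 promoters below belong to genes that were higher in lung CD4 cells than in whole lung and hold such a match, with the matched letters in capitals: 2 ETS cores in Uqcrc2, at chr1:184598990-184599239 on the plus strand, 1 in Uqcrh, at chr5:134790883-134791132 on the minus strand, and the NRF1 core in Ndufaf4, at chr5:43401545-43401794 on the plus strand. The ETS letters appear as their reverse complement.
Uqcrc2: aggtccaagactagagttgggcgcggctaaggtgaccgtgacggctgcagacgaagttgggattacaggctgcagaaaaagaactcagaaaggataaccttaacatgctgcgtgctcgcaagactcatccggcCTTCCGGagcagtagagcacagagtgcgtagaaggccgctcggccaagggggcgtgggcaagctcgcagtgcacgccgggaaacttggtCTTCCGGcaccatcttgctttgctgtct
Uqcrh: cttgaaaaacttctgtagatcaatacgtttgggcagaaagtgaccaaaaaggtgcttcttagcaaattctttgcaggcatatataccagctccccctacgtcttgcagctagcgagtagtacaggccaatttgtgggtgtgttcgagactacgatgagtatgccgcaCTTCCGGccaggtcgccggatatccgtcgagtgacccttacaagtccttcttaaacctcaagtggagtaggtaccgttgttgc
Ndufaf4: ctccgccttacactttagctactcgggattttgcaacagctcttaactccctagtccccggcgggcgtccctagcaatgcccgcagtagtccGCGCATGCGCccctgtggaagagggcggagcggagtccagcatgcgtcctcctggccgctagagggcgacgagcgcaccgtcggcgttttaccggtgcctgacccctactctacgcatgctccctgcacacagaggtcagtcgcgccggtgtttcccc
A match is a run of letters and not a shown binding site. Of the nuclear genes higher in WT CD4 cells than in WT lung, 11 of 24 with a promoter held either motif, against 6 of 21 among those lower and 12 of 30 among those not called. In IL6KO rats these were 7 of 20, 10 of 32 and 12 of 23.

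As a share of all counts, the mt genes took 5.50 and 6.11% in IL6KO and 7.86 and 7.78% in WT lung CD4 cells, so both IL6KO libraries lay below both WT libraries. In whole lung the groups were closer, with 4.35, 4.31 and 4.05% in IL6KO and 4.55, 4.46 and 4.42% in WT libraries at day 56, and 4.03, 3.84 and 3.59% in IL6KO and 3.95, 4.08 and 3.45% in WT libraries at day 7. At day 56 all 3 IL6KO libraries were below all 3 WT libraries, and at day 7 the groups overlapped. Splenic cells had the lowest mt shares, at 1.003, 1.16 and 1.43% in tdTomato-positive and 1.31, 1.41 and 1.15% in tdTomato-negative fractions, but the mouse sum leaves out mt-Cytb, whose symbol is not one of those chosen. The nuclear genes took 0.576 and 0.598% in IL6KO and 0.603 and 0.624% in WT lung CD4 cells, 0.603% to 0.699% in whole lung and 1.06% to 1.21% in spleen. The ratio of mt to nuclear counts was 9.56 and 10.2 in IL6KO and 13.03 and 12.5 in WT lung CD4 cells. In bulk libraries, fewer cells of a type and less RNA per cell cannot be told apart.

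**Figure D1:**
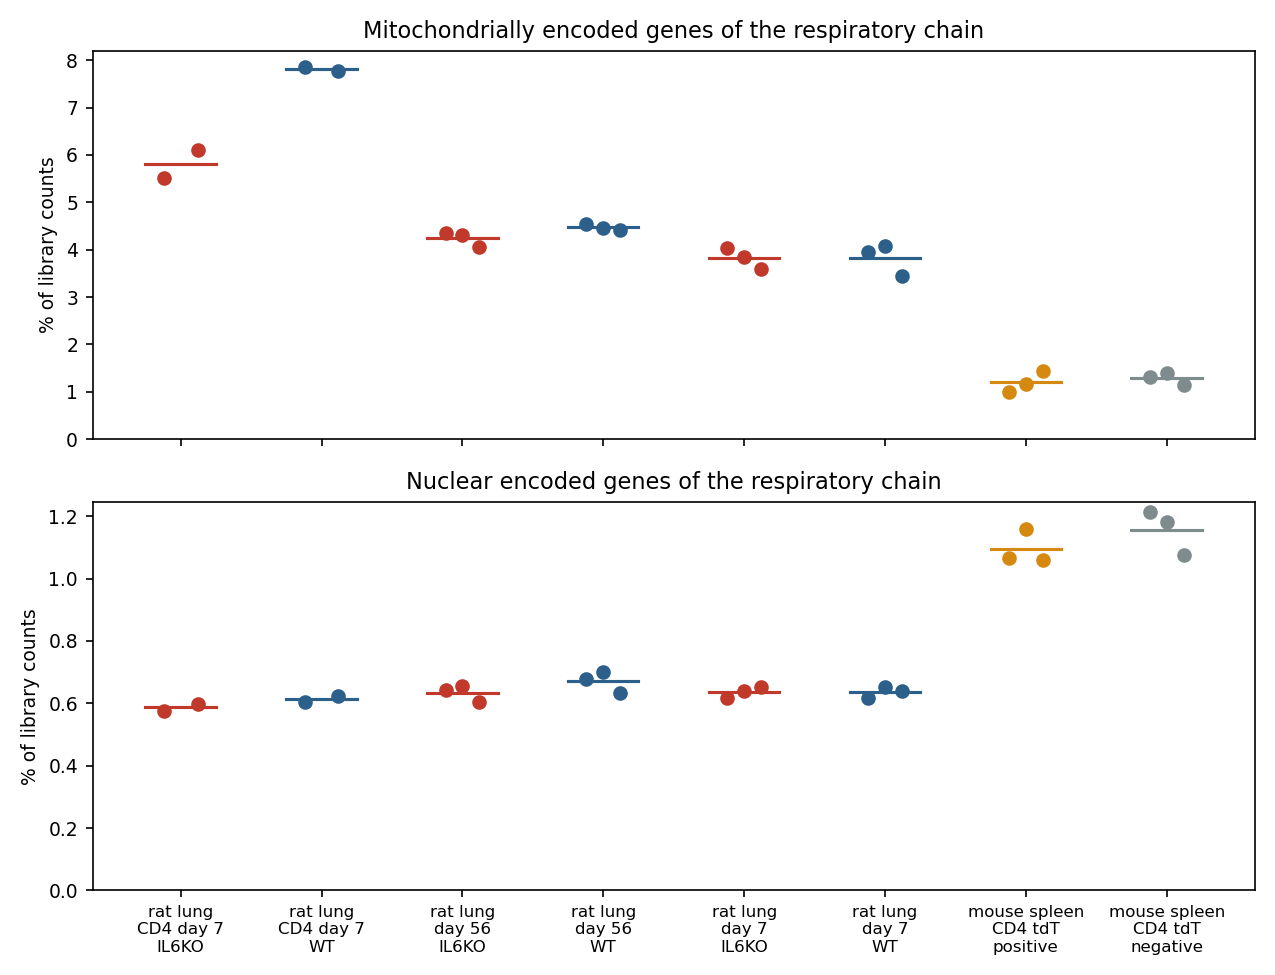
Share of all counts, in percent, from mt genes and from nuclear genes of the respiratory chain, with 1 point per library and groups along the horizontal axis. The mt share is 5.50% and 6.11% in IL6KO and 7.86% and 7.78% in WT lung CD4 cells, while the nuclear shares of these groups lie between 0.576% and 0.624%.

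In lung CD4 cells at day 7, mt genes of all 4 complexes that the mitochondrial genome contributes to were lower in IL6KO than in WT rats, and no nuclear gene of the chain passed the test. Of the 13 mt genes 10 were lower and 0 higher at an adjusted p under 0.05 (edgeR's quasi-likelihood test, Benjamini-Hochberg over all 12243 genes), where 6.4% of all genes were called, 2.91% lower and 3.5% higher. The log2 fold changes of the 13 had a median of -0.49, against -0.00 over all genes, and ran from -0.62 to -0.31. In every one of the 13, both IL6KO libraries lay below both WT libraries, which was so for 25.2% of all genes tested, while 30.1% had both above. The mt genes are read as long shared transcripts and were measured in the same libraries, so the 13 are not independent observations. Of 87 nuclear genes tested, 0 were called by edgeR or by DESeq2, 7 had an unadjusted p under 0.05, and the median log2 fold change was -0.08.

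Mt-cyb, the cytochrome b of complex III, had 4191 and 4433 CPM in IL6KO cells, against 6517 and 6463 CPM in WT cells. Its log2 fold change was -0.62 ± 0.07 (SE), with an adjusted p of 0.00612 by edgeR's quasi-likelihood test, the smallest of the 13. The spread within each genotype was small beside the gap between them.

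The complex IV genes encode the catalytic core of cytochrome oxidase. Mt-co3 had 8392 and 9325 CPM in IL6KO and 13081 and 13199 CPM in WT cells, a log2 fold change of -0.60 ± 0.08 (edgeR adjusted p 0.00888). Mt-co2 had 4577 and 5247 CPM in IL6KO and 6659.9 and 6740.2 CPM in WT cells (-0.48 ± 0.09, edgeR adjusted p 0.0225). Mt-co1, which binds the heme and copper centre where oxygen is reduced, had 17149 and 19117 CPM in IL6KO and 22174 and 21926 CPM in WT cells and did not pass the test (-0.31 ± 0.08, edgeR adjusted p 0.0586). Its groups did not overlap, and DESeq2 called it (adjusted p 0.0401).

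The ATP synthase genes encode membrane subunits of complex V. Mt-atp6 had 5875 and 6509 CPM in IL6KO and 8645 and 8721 CPM in WT cells (-0.52 ± 0.08, edgeR adjusted p 0.0137). Mt-atp8 had 657 and 848 CPM in IL6KO and 1061 and 1143 CPM in WT cells and missed the threshold at 0.0551 (edgeR, -0.58 ± 0.13), though DESeq2 called it. Mt-atp8 had the larger spread between the IL6KO libraries, and the bases it shares with Mt-atp6 in the mouse are printed above.

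Complex I takes 7 subunits from the mitochondrial genome, and 6 of them were lower in IL6KO CD4 cells. Mt-nd1 had 3335 and 3707 CPM in IL6KO and 4910.2 and 4647 CPM in WT cells (-0.47 ± 0.08, edgeR adjusted p 0.0225). Mt-nd2 had 4341 and 4882 CPM in IL6KO and 6742 and 6345 CPM in WT cells (-0.53 ± 0.09, edgeR adjusted p 0.0167). Both belong to the membrane arm of the complex, as do the rest of the 7. Mt-nd4 had 3681 and 3892 CPM in IL6KO and 4789.8 and 4594 CPM in WT cells (-0.34 ± 0.07, edgeR adjusted p 0.0423). Mt-nd5 had 1728 and 1832 CPM in IL6KO and 2397 and 2399 CPM in WT cells (-0.46 ± 0.07, edgeR adjusted p 0.0162). In Mt-nd5 the lowest WT library exceeded the highest IL6KO library by more than the IL6KO libraries differed.

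Of the 3 other complex I genes of the mitochondrial genome, 2 passed the test. Mt-nd3 had 429 and 481 CPM in IL6KO and 642 and 615 CPM in WT cells (-0.49 ± 0.09, edgeR adjusted p 0.0232). Mt-nd4l had 438 and 514 CPM in IL6KO and 594 and 599 CPM in WT cells and did not pass (-0.35 ± 0.10, edgeR adjusted p 0.0742). Mt-nd6 is the gene encoded on the opposite strand from the others. It had 226 and 269.8 CPM in IL6KO and 339.9 and 368 CPM in WT cells (-0.54 ± 0.11, edgeR adjusted p 0.0294). With no strand setting given, its reads cannot be told from those of the opposite strand.

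**Figure D2:**
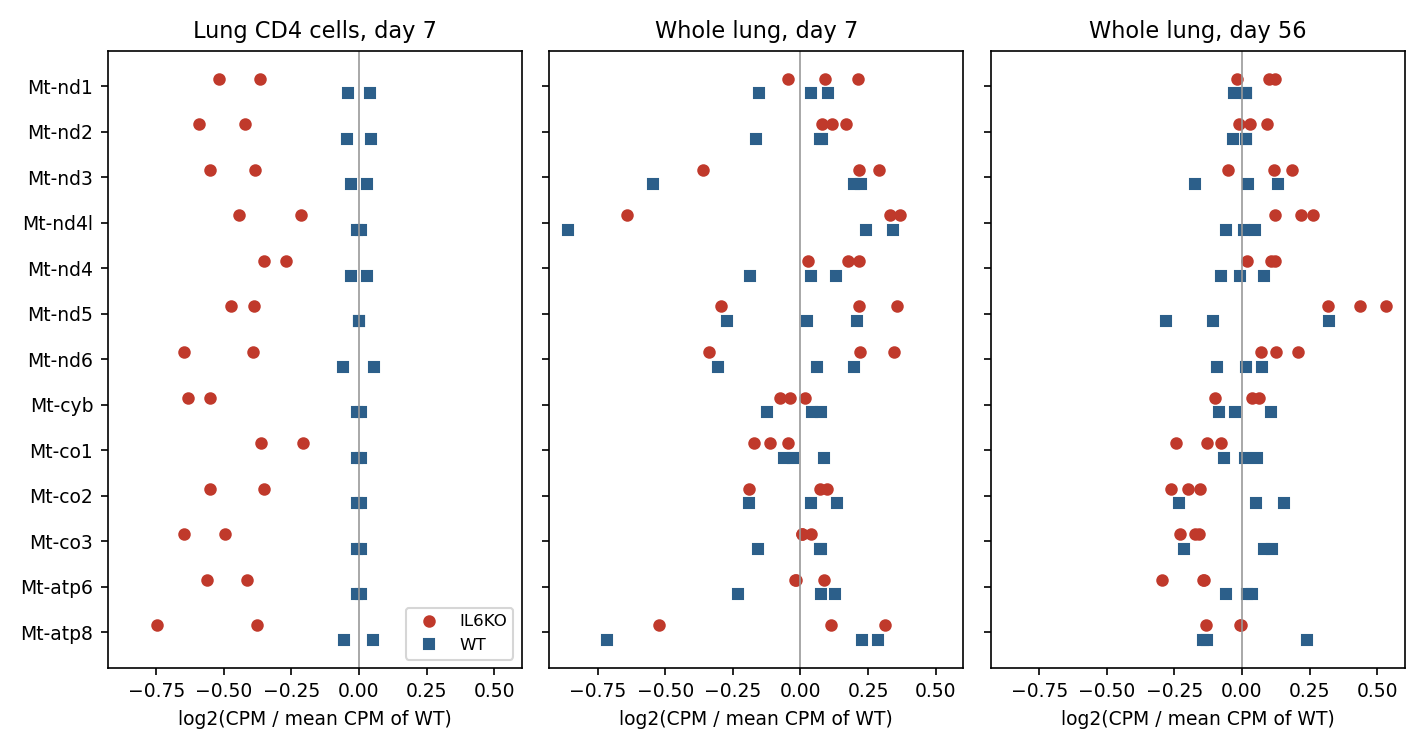
Level of each mt gene in each rat library, as log2 of its CPM over the mean CPM of the WT libraries of that panel, for lung CD4 cells at day 7 and for whole lung at day 7 and day 56. Circles are IL6KO and squares WT. In the CD4 panel both circles lie left of both squares for all 13 genes, and in the day 7 lung panel the third library of each genotype lies far left for Mt-nd4l, Mt-atp8 and Mt-nd3.

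Which CD4 libraries are used decides how many mt genes pass. With WT library 1 or WT library 2 left out, 0 of 13 were called, and of all genes 0.606% and 0.914% were then called. With IL6KO library 1 left out 10 were called, and with IL6KO library 2 left out 13. Markers of other cells also differed between the genotypes in these preparations. Of the 5 macrophage genes tested 3 were higher in IL6KO cells, with sums of 2281 to 2557 CPM in IL6KO and 1406 to 1439 CPM in WT cells. Of 5 epithelial genes 4 were lower in IL6KO cells (737 to 832 CPM in IL6KO, 2322 to 3171 CPM in WT), of 5 endothelial genes 1 was lower (94.4 to 105.6 CPM in IL6KO, 123 to 127 CPM in WT), and of 6 smooth muscle genes 3 were lower (18.7 to 24.1 CPM in IL6KO, 45.5 to 46.9 CPM in WT). Of 10 T cell genes 3 were lower (2987 to 3278 CPM in IL6KO, 3488 to 3559 CPM in WT), and of 4 erythroid genes 1 was higher (2072 to 4355 CPM in IL6KO, 608 to 950.4 CPM in WT). Their part in the result was not tested.

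Among nuclear genes in the CD4 cells, the smallest p belonged to Uqcrh, the hinge protein of complex III. It had 90.1 and 88.1 CPM in IL6KO and 107 and 109 CPM in WT cells (-0.30 ± 0.08, edgeR adjusted p 0.0711), and its groups did not overlap. Ndufa4, a subunit now assigned to complex IV but counted here with complex I by its symbol, had 52.4 and 52.7 CPM in IL6KO and 62.1 and 63.6 CPM in WT cells (-0.29 ± 0.08, edgeR adjusted p 0.0856). Atp5f1a, the alpha subunit of the catalytic head of ATP synthase, had 424 and 412 CPM in IL6KO and 477 and 492 CPM in WT cells (-0.24 ± 0.07, edgeR adjusted p 0.106). None of the 3 passed the test. Of the 87 nuclear genes tested, 33 had both IL6KO libraries below both WT libraries and 11 had both above, against 25.2% and 30.1% of all genes. By complex, the median log2 fold change was -0.09 for 36 nuclear complex I subunits, -0.12 for the 4 succinate dehydrogenase genes, -0.03 for 9 complex III genes, -0.08 for 12 complex IV genes and -0.09 for 17 complex V genes. All 12 common complex IV subunits had a negative fold change, as did 50.7% of all genes.

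The succinate dehydrogenase genes, the only complex with no mt subunit, had folds on both sides of 0 in CD4 cells. Sdha, the flavoprotein, had 109 and 118 CPM in IL6KO and 129.7 and 126 CPM in WT cells (-0.20 ± 0.09, edgeR adjusted p 0.232). Sdhb, the iron-sulfur subunit, had 63.5 and 64.4 CPM in IL6KO and 56.04 and 58.001 CPM in WT cells (0.14 ± 0.08, edgeR adjusted p 0.366). The membrane anchors Sdhc and Sdhd had log2 fold changes of -0.15 ± 0.08 and -0.09 ± 0.08 (edgeR adjusted p 0.324 and 0.565). The groups of Sdha and of Sdhb did not overlap, in opposite directions, and neither passed.

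Other genes that serve the chain mostly did not pass the test in CD4 cells. Of 71 mitochondrial ribosome genes 1 was higher in IL6KO cells, Mrpl4, with 32.4 and 33.02 CPM in IL6KO and 17.1 and 18.6 CPM in WT cells (0.85 ± 0.11, edgeR adjusted p 0.00888). Of 12 genes of mitochondrial DNA upkeep and transcription, 10 of cytochrome oxidase assembly, 11 of the citrate cycle, 5 electron carriers and 5 regulators, 0 were called. Tfam, which packages mitochondrial DNA and starts its transcription, had 37.8 and 38.1 CPM in IL6KO and 47.2 and 46.5 CPM in WT cells (-0.33 ± 0.09, edgeR adjusted p 0.0759).

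In whole lung at day 7, 0 of 13 mt genes and 0 of 92 nuclear genes differed between IL6KO and WT rats by edgeR, where 2.09% of all 14368 genes were called, 0.933% higher and 1.16% lower. The nuclear median was -0.00 on the log2 scale and the mt median 0.08, against 0.00 over all genes. At an unadjusted p under 0.05 there were 7 nuclear genes and 0 mt genes, and DESeq2 called 1 nuclear gene. That gene was Ndufa8, an accessory subunit of complex I, with 69.6, 71.6 and 81.7 CPM in IL6KO and 89.6, 91.1 and 98.3 CPM in WT lungs. Its groups did not overlap (-0.32 ± 0.08, edgeR adjusted p 0.0962, DESeq2 adjusted p 0.0358). Ndufa4l2, a hypoxia-induced relative of Ndufa4, had 33.4, 31.5 and 36.4 CPM in IL6KO and 27.8, 26.5 and 29.9 CPM in WT lungs (0.27 ± 0.09, edgeR adjusted p 0.197). Cox7a2l, which takes part in joining complexes III and IV into supercomplexes, had 125, 131 and 129.7 CPM in IL6KO and 108, 118 and 111 CPM in WT lungs (0.20 ± 0.07, edgeR adjusted p 0.21). Both were among 10 of 93 nuclear genes of the chain with all IL6KO libraries above all WT libraries. Another 5 had all IL6KO libraries below, and neither Ndufa4l2 nor Cox7a2l passed.

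The short mt genes varied more between day 7 lungs than between genotypes. Mt-nd4l had 291, 283 and 145 CPM in IL6KO and 286, 267 and 124 CPM in WT lungs. Mt-nd3 had 461, 438 and 294 CPM in IL6KO and 432, 441 and 258 CPM in WT lungs, and Mt-atp8 had 567, 494 and 317 CPM in IL6KO and 535, 557 and 278 CPM in WT lungs. In each of the 3 the library numbered 3 was the lowest of its genotype, in both genotypes. The longer Mt-co1 had 11924, 11391 and 10930.3 CPM in IL6KO and 12073, 13095 and 11798 CPM in WT lungs, and Mt-cyb had 3400.4, 3272 and 3191 CPM in IL6KO and 3460.4, 3539.6 and 3081 CPM in WT lungs. The cause was not tested.

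Whether IL6KO and WT differed by another amount in CD4 cells than in whole lung was tested as an interaction over the 10 day 7 libraries, a test added after the values were seen. Of 13 mt genes 6 were lower and 0 higher, where 6.42% of all 14772 genes were called, 4.55% lower and 1.88% higher. The median over the 13 was -0.66 on the log2 scale, against -0.11 over all genes. The 6 were Mt-nd1, Mt-nd2, Mt-nd4, Mt-cyb, Mt-co3 and Mt-atp6, with differences from -0.74 ± 0.14 in Mt-nd2 to -0.57 ± 0.15 in Mt-nd4 (edgeR adjusted p 0.0116 and 0.0421). Of 92 nuclear genes 2 were lower, a share no larger than that of all genes. They were Uqcrh (-0.47 ± 0.11, edgeR adjusted p 0.0233) and Cox7a2l (-0.45 ± 0.11, edgeR adjusted p 0.0305). Uqcrh had 68.5, 75.02 and 75.4 CPM in IL6KO and 67.4, 70.5 and 68.98 CPM in WT lungs, where the genotypes overlapped, while in CD4 cells both IL6KO libraries lay below both WT libraries. Of 12 genes of mitochondrial DNA upkeep and transcription 1 was lower, Tfam (-0.56 ± 0.15, edgeR adjusted p 0.0467). Of 72 mitochondrial ribosome genes 1 was lower, Mrps9 (-0.54 ± 0.13, edgeR adjusted p 0.028). Of the cytochrome oxidase assembly, electron carrier, regulator and citrate cycle genes 0 were called, where 4.55% of all genes were lower. Without CD4 WT library 1, 0 mt and 0 nuclear genes were called. With any 1 of the 10 libraries left out in turn, Mt-nd2 and Mt-cyb lost their calls 1 time, without that library, Mt-co3 2 times, Uqcrh 5 times, Mt-nd1, Mt-atp6 and Cox7a2l 8 times and Mt-nd4 9 times.

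At day 56, 0 of 13 mt and 0 of 92 nuclear genes differed between IL6KO and WT lungs by edgeR, where 0.0138% of all 14475 genes were called. DESeq2 called 1 nuclear and 0 mt genes, and 4 nuclear and 1 mt genes had an unadjusted p under 0.05. Most nuclear genes had a negative fold change without passing. Of the 92, 75 had a negative fold change, as did 52.0% of all genes, and their median was -0.15, against -0.01 over all genes. All 12 common complex IV subunits and 33 of 37 complex I subunits were negative, while the 4 succinate dehydrogenase genes split evenly around 0. The median over 72 mitochondrial ribosome genes was also -0.15. Of the mt genes all 7 of complex I were positive and all 5 of complexes IV and V negative. Marker lists of other cells went both ways between the genotypes, with 0 genes called. The median log2 fold change was -0.58 for 9 T cell genes, -0.46 for 8 smooth muscle genes, -0.44 for 5 B cell genes, 1.44 for 13 cardiac muscle genes and 1.20 for 4 erythroid genes. It was 0.66 for 2 brown fat, 0.13 for 5 macrophage, 0.04 for 5 epithelial, 0.01 for 6 pericyte and -0.08 for 5 skeletal muscle genes. The endothelial sum was 2931, 3165 and 3359.9 CPM in IL6KO and 2793, 2785 and 2779.9 CPM in WT lungs, without overlap. Their part in these values was not tested.

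Cox5a, a nuclear subunit of complex IV, had the smallest p. It had 66.9, 67.9 and 61.7 CPM in IL6KO and 96.7, 103 and 79.8 CPM in WT lungs, without overlap (-0.53 ± 0.12, edgeR adjusted p 0.383, DESeq2 adjusted p 0.0238). Of 93 nuclear genes of the chain, 12 had all IL6KO libraries below all WT libraries and 0 had all above. Cox8a, the common isoform of a small complex IV subunit, had 86.2, 92.1 and 81.3 CPM in IL6KO and 136, 122 and 81.6 CPM in WT lungs (-0.40 ± 0.18, edgeR adjusted p 0.441). In Cox8a WT library 3 lay with the IL6KO libraries. Atp5i, a small membrane subunit of ATP synthase, had 37.5, 36.3 and 32.8 CPM in IL6KO and 50.2, 51.2 and 35.8 CPM in WT lungs (-0.38 ± 0.16, edgeR adjusted p 0.432). The symbol Uqcrb_2, which shares its name with Uqcrb_1 so that reads may be split between copies, had a fold change of -0.41 ± 0.13 (edgeR adjusted p 0.414). Mt-nd5 had 1475, 1357 and 1575 CPM in IL6KO and 897, 1010.3 and 1360.0 CPM in WT lungs (0.42 ± 0.16, edgeR adjusted p 0.428).

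WT library 3 stood apart from the other two WT libraries in these genes. Ndufs1, the largest iron-sulfur subunit of complex I, had 78.6, 81.4 and 79.2 CPM in IL6KO and 57.9, 59.8 and 81.4 CPM in WT lungs, so that WT library 3 was at the IL6KO level. With all libraries kept, 0 of 92 nuclear genes were called. With that library left out, 12 nuclear genes were lower in IL6KO lungs and 1, Ndufs1, was higher (0.42, edgeR adjusted p 0.0245), where 3.23% of all genes were called lower and 5.4% higher. The 12 were 3 of complex I (Ndufb10, Ndufb3 and Ndufab1), 3 of complex III (Uqcrb_2, Uqcr10 and Uqcrq), 3 of complex IV (Cox5a, Cox8a and Cox6a1) and 3 of complex V (Atp5i, Atp5g3 and Atp5d). Their log2 fold changes ran from -0.63 in Cox5a to -0.33 in Atp5g3. Mt-nd5 was then higher in IL6KO lungs (0.61, edgeR adjusted p 0.033). The 2 WT libraries left were assumed to vary like the IL6KO libraries. This fit was picked out after its values were seen, so its calls describe how the result hangs on 1 library. They are not support for a genotype difference.

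**Figure D3:**
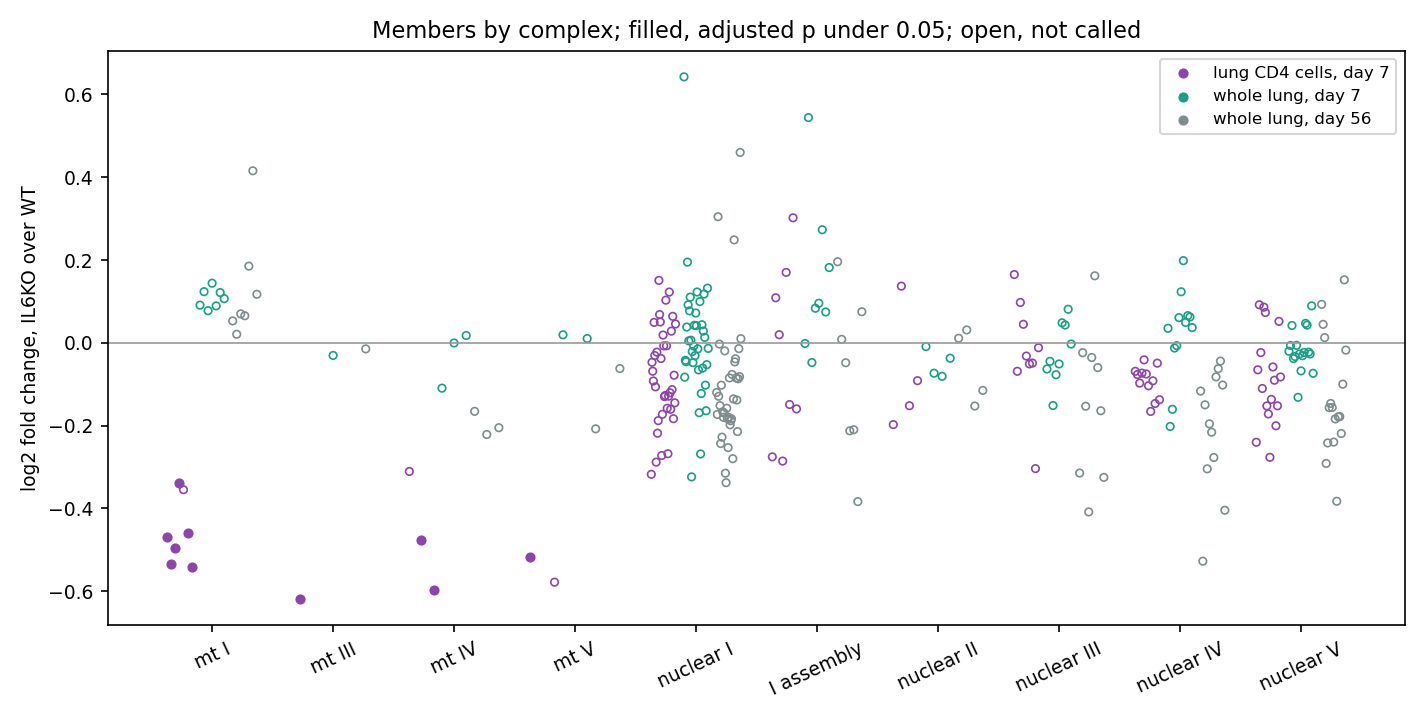
Log2 fold change of the tested genes in IL6KO against WT samples, by complex and without the tissue or hypoxia isoforms, for lung CD4 cells at day 7, lung at day 7 and lung at day 56, with filled points where the edgeR adjusted p is under 0.05. The 10 filled points are all mt genes in CD4 cells, and the 12 common complex IV genes in day 56 lung all lie below 0.

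Of the muscle and hypoxia isoforms, Cox6a2, the heart and skeletal muscle form of a complex IV subunit, varied widely at day 56. It had 10.6, 9.89 and 4.14 CPM in IL6KO and 0.259, 1.83 and 7.42 CPM in WT lungs (1.41 ± 0.92, edgeR adjusted p 0.534). The 14 cardiac muscle genes summed to 731, 610.5 and 370.4 CPM in IL6KO and 61.7, 141 and 481 CPM in WT lungs, and the 6 libraries had the same order for Cox6a2 and for this sum. At day 7 Cox6a2 had 7.29, 8.01 and 9.66 CPM in IL6KO and 9.93, 9.96 and 5.35 CPM in WT lungs, with sums of 547, 553 and 599 CPM in IL6KO and 652, 713 and 442 CPM in WT lungs, again in the same order in 6 of 6 libraries. These orders are descriptions, and the part of cardiac RNA in Cox6a2 was not tested.

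The difference between IL6KO and WT lungs was compared between day 56 and day 7 as an interaction. edgeR called 0 of 14193 genes (0%) and so 0 respiratory chain genes, while 1067 genes had an unadjusted p under 0.05, 5 nuclear and 0 mt genes of the chain among them. DESeq2 called 47 of all genes. Without day 56 WT library 3, edgeR called 5 nuclear genes, where 4.29% of all genes were called. The smallest p belonged to Cox7a1 (-1.31 ± 0.36, edgeR adjusted p 0.48), then Cox6c (-0.40 ± 0.16, edgeR adjusted p 0.625) and Cox7a2l (-0.26 ± 0.10, edgeR adjusted p 0.625).

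Day 56 was also set against day 7 within each genotype. The tables of the days list different symbols, so day and table cannot be told apart. In WT lungs 2 of 13 mt genes were higher at day 56, where 14.7% of all genes were called, 6.69% higher and 7.98% lower. All 13 had a positive fold change, as did 52.0% of all genes, with a median of 0.25, against 0.01 over all genes. Mt-co3 had 6615, 6491 and 5282 CPM at day 56 (listed there as Mt-cox3) and 5001, 5012 and 4264 CPM at day 7 in WT lungs (0.34 ± 0.10, edgeR adjusted p 0.0411). Mt-atp6 had 5309, 5245 and 4965 CPM at day 56 and 4277, 4433 and 3457 CPM at day 7 (0.32 ± 0.10, edgeR adjusted p 0.0461). Both had every day 56 library above every day 7 library. Each of these calls was lost in 5 of the 6 fits that leave out 1 library, the exception being the fit without day 56 WT library 3. Markers of other cells also differed between the days in WT lungs. All 4 erythroid genes were lower at day 56, with sums of 262.0 to 844 CPM at day 56 and 3277 to 3854 CPM at day 7, and 6 of 8 smooth muscle genes were lower, with 1241 to 1804 CPM at day 56 and 2133 to 2336 CPM at day 7. Of 5 B cell genes 4 were higher, with 55.01 to 88.2 CPM at day 56 and 26.4 to 29.55 CPM at day 7. Of 6 pericyte genes 3 were lower, with 401 to 488 CPM at day 56 and 616 to 682 CPM at day 7, as were 2 of 14 cardiac and 1 of 4 skeletal muscle genes. Of 5 endothelial genes 1 was higher and 2 lower, and 1 of 9 T cell and 1 of 5 epithelial genes were higher. Their part in the results of day was not tested. In IL6KO lungs 0 of 13 mt genes were called, where 8.14% of all genes were called, 3.29% higher and 4.85% lower. Of the 13, 12 were positive, as were 54.2% of all genes, with a median of 0.12, against 0.02 over all genes. There 1 mt gene had an unadjusted p under 0.05, and DESeq2 called 1.

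Of 91 nuclear genes 2 were higher and 3 lower at day 56 in WT lungs, where 14.7% of all genes were called, and 0 were higher and 3 lower in IL6KO lungs, where 8.14% were called. Neither count exceeds the share of all genes, and 1 of the 3 lower in each genotype is Ndufa13, which is at 0 or 1 count in every library of the day 56 table. Cox7a1, the heart and skeletal muscle form of a complex IV subunit, had 0.594, 0.770 and 0.353 CPM at day 56 and 8.77, 9.66 and 12.7 CPM at day 7 in IL6KO lungs (-4.23 ± 0.26, edgeR adjusted p 2.42e-07). In WT lungs it had 0.986, 0.871 and 1.18 CPM at day 56 and 8.19, 7.72 and 6.41 CPM at day 7 (-2.92 ± 0.24, edgeR adjusted p 3.94e-06). The days did not overlap in either genotype. In IL6KO lungs 5 of 8 smooth muscle genes were lower too, with sums of 1037 to 1325 CPM at day 56 and 1909 to 1992 CPM at day 7, as were 2 of 4 erythroid genes. There 2 endothelial genes were higher and 1 lower, 1 pericyte gene was higher and 1 lower, and 1 epithelial gene was higher. The cardiac muscle sum was 370.4 to 731 CPM at day 56 and 547 to 599 CPM at day 7 in IL6KO lungs, with 0 of 14 genes called, and 61.7 to 481 CPM at day 56 and 442 to 713 CPM at day 7 in WT lungs, with 2 of 14 lower. In WT lungs Cox6a2 had 0.259, 1.83 and 7.42 CPM at day 56 and 9.93, 9.96 and 5.35 CPM at day 7 (-1.52 ± 0.75, edgeR adjusted p 0.211). The part of muscle RNA in Cox7a1 was not tested. Cox8b had 6.24, 5.45 and 3.48 CPM at day 56 and 4.49, 4.71 and 6.24 CPM at day 7 in IL6KO lungs, and 4.67, 2.96 and 4.99 CPM at day 56 and 4.46, 4.07 and 3.55 CPM at day 7 in WT lungs.

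Ndufa8 was lower at day 56 in both genotypes. It had 62.6, 60.3 and 54.1 CPM at day 56 and 69.6, 71.6 and 81.7 CPM at day 7 in IL6KO lungs (-0.37 ± 0.09, edgeR adjusted p 0.0297), and 67.8, 67.6 and 61.4 CPM at day 56 and 89.6, 91.1 and 98.3 CPM at day 7 in WT lungs (-0.53 ± 0.09, edgeR adjusted p 0.00253). In WT lungs Uqcrh was higher at day 56 (0.32 ± 0.09, edgeR adjusted p 0.0319), as was the complex I assembly factor Ndufaf2 (0.70 ± 0.22, edgeR adjusted p 0.0496). With 1 of the 6 libraries left out in turn, the calls of Ndufa8 in IL6KO and of Uqcrh in WT lungs were lost 5 times and that of Ndufaf2 4 times, with adjusted p of up to 0.112, 0.141 and 0.176 by edgeR. Of 10 cytochrome oxidase assembly genes 1 was higher in WT lungs at day 56, the copper chaperone Cox17 (0.49 ± 0.13, edgeR adjusted p 0.0274). Of 12 genes of mitochondrial DNA upkeep and transcription 2 were higher, Tfb2m (0.49 ± 0.11) and Mterf1 (0.48 ± 0.11, edgeR adjusted p 0.011 and 0.0134). Of 72 mitochondrial ribosome, 7 regulator and 11 citrate cycle genes 0 were called in WT lungs, where 6.69% of all genes were higher. Of 5 electron carriers 1, Cycs, was lower in each genotype. Ppara, a nuclear receptor of fatty acid oxidation genes and 1 of 7 regulators, was higher in IL6KO lungs at day 56 (0.90 ± 0.22, edgeR adjusted p 0.0222). There 3.29% of all genes were higher, and 0 of the assembly, upkeep, ribosome and citrate cycle genes were called. Without day 56 WT library 3, 29 nuclear and 3 mt genes were called between the days in WT lungs, where 26.2% of all genes were called.

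Ndufa13, a complex I subunit also known as GRIM-19, and Ndufa1, another accessory subunit, followed the table. Ndufa13 had 43.02, 44.9 and 55.3 CPM in IL6KO and 43.5, 48.1 and 47.9 CPM in WT lungs at day 7, and 1, 0 and 0 counts in IL6KO and 0, 0 and 0 counts in WT lungs at day 56. Against a floor of 3 counts over the group, it was at least 883-fold lower at day 56 in WT lungs. In IL6KO lungs, with 1 count in all, the ratio was 2571-fold lower (95% interval 461 to 1.016e+05, covering counting error only). Ndufa1 had 0 counts in every day 7 library, lung and CD4 cells, and 52.8, 47.1 and 48.9 CPM in IL6KO and 55.6, 57.8 and 46.3 CPM in WT lungs at day 56. Cycs, the cytochrome c that carries electrons between complexes III and IV, had 78.9, 77.3 and 48.8 CPM in IL6KO and 77.8, 82.9 and 49.7 CPM in WT lungs at day 7, and 0, 0 and 0 counts in IL6KO and 1, 23 and 0 counts in WT lungs at day 56. These genes are needed for respiration in nearly every cell, and whether the symbols were counted differently in the 2 tables was not tested.

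CD4 cells were set against whole lung within day 7. All 13 mt genes were higher in WT CD4 cells than in WT lung, where 81.4% of all 14772 genes were called, 37.7% higher and 43.6% lower. Their median was 1.26 on the log2 scale, against -0.12 over all genes, and they ran from 1.05 ± 0.24 in Mt-nd3 to 1.78 ± 0.09 in Mt-co3. In IL6KO rats 11 of 13 were higher, where 79.5% of all genes were called, 36.4% higher and 43.2% lower, with a median of 0.79, against -0.12 over all genes. The same 11 genes were higher in both genotypes, and Mt-nd3 (0.39 ± 0.24) and Mt-nd6 (0.33 ± 0.19) were the 2 not called in IL6KO rats (edgeR adjusted p 0.163 and 0.139). In IL6KO rats the calls of Mt-nd4l and Mt-atp8 were lost without either CD4 library, and that of Mt-atp8 also without lung library 3. Mt-co3 had 8392 and 9325 CPM in CD4 cells and 4884, 4780.1 and 4779.8 CPM in lung of IL6KO rats, and 13081 and 13199 CPM in CD4 cells and 5001, 5012 and 4264 CPM in lung of WT rats. The 5 IL6KO libraries of that gene did not overlap between CD4 cells and lung, nor did the 5 WT libraries.

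Nuclear genes of the chain went both ways between CD4 cells and lung. Of 92, 21 were higher and 38 lower in IL6KO and 28 higher and 26 lower in WT CD4 cells, with medians of -0.15 in IL6KO and 0.00 in WT cells. Of all genes 36.4% were called higher and 43.2% lower in IL6KO, and 37.7% higher and 43.6% lower in WT cells. In neither genotype does a count of nuclear genes, higher or lower, exceed these shares. The lower ones include the 6 tissue and hypoxia isoforms, 5 of which entered the fit only through lung. Of those higher, 20 were called in both genotypes, which is 20 of the 21 in IL6KO and 20 of the 28 in WT rats, and of those lower 25, which is 25 of the 38 and 25 of the 26. Of 12 common complex IV genes 6 were higher and 1 lower in IL6KO and 9 higher and 0 lower in WT cells. Ndufa4, lower in both genotypes, is counted with complex I by its symbol and not among these 12. Of 36 complex I subunits 4 were higher and 21 lower in IL6KO and 4 higher and 12 lower in WT cells, and for WT the lower ones do not exceed the share of all genes. Complex V had 5 higher and 3 lower of 17 in IL6KO and 7 higher and 2 lower in WT cells. Complex III had 4 higher and 3 lower of 9 in both genotypes. Each of these folds is relative to scaling factors, which ran from 1.06 to 1.09 in the lung libraries. The factors were 0.934 and 0.940 in IL6KO and 0.851 and 0.879 in WT CD4 cells. Each fold therefore lies above the ratio of the printed CPM, by more in WT rats, and small positive folds depend on the scaling.

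**Figure D4:**
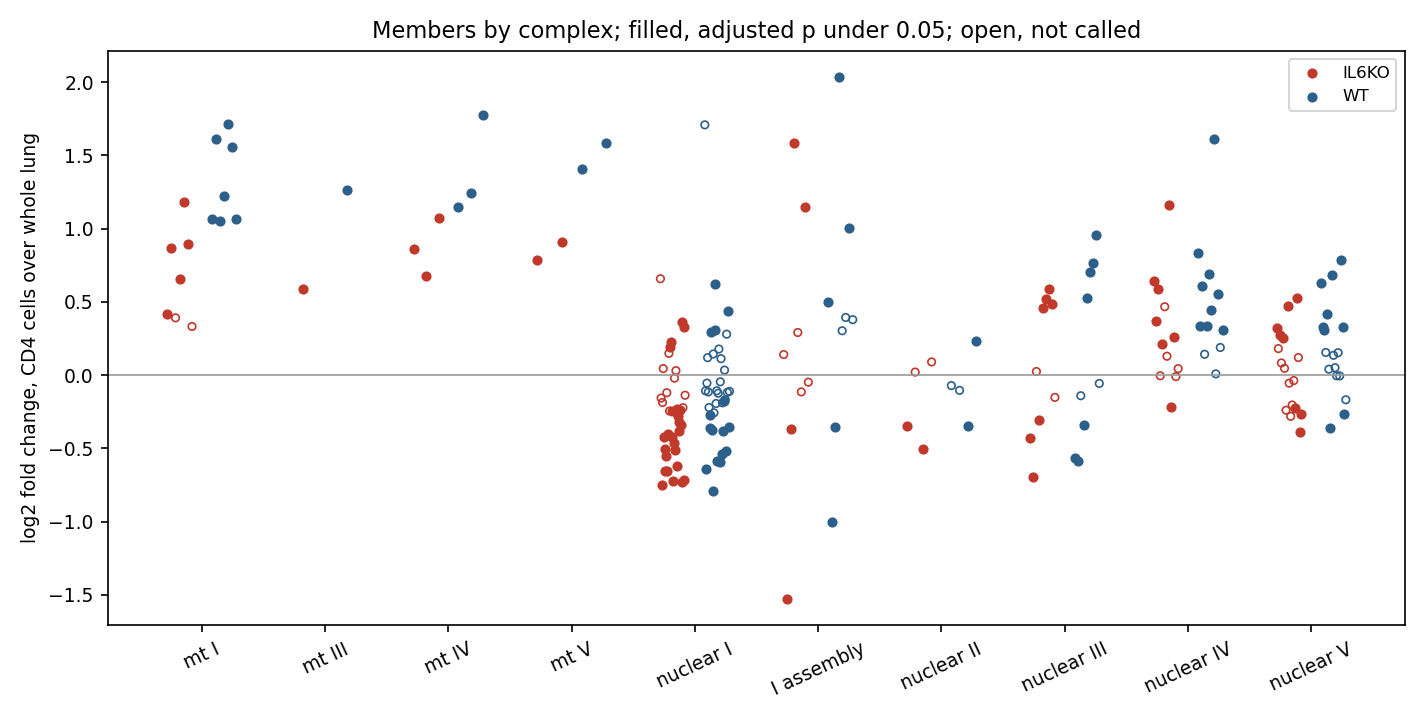
Log2 fold change of the tested genes in CD4 cells against whole lung at day 7, by complex, in IL6KO and in WT rats, without the 6 tissue or hypoxia isoforms, with filled points where the edgeR adjusted p is under 0.05. All mt points lie above 0, and most filled points of nuclear complex IV lie above 0 and most of nuclear complex I, where Ndufa4 is drawn, below it.

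Cox7a2l had the smallest p among the higher nuclear genes in both genotypes. It had 242 and 262 CPM in CD4 cells and 125, 131 and 129.7 CPM in lung of IL6KO rats (1.16 ± 0.08, edgeR adjusted p 2.23e-08), and 272 and 282 CPM in CD4 cells and 108, 118 and 111 CPM in lung of WT rats (1.61 ± 0.08, edgeR adjusted p 1.03e-09). The compartments did not overlap. Cox4i1, the common isoform of the largest nuclear subunit of complex IV, was higher by 0.64 ± 0.08 in IL6KO and 0.83 ± 0.08 in WT CD4 cells (edgeR adjusted p 8.17e-06 and 7.01e-07). Uqcrfs1, the Rieske iron-sulfur protein of complex III, was higher by 0.59 ± 0.08 in IL6KO and 0.77 ± 0.08 in WT CD4 cells. The stator subunit Atp5pb of ATP synthase was higher by 0.52 ± 0.07 in IL6KO and 0.79 ± 0.07 in WT CD4 cells. All these passed the edgeR test, with adjusted p of 2.02e-05 and 1.68e-06 for Uqcrfs1 and 3e-05 and 6.4e-07 for Atp5pb.

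The genes whose promoters are printed above were among those higher in CD4 cells. Uqcrc2, a core protein of complex III, had 149 and 147 CPM in CD4 cells and 116, 126 and 113 CPM in lung of IL6KO rats, and 141 and 159.6 CPM in CD4 cells and 114, 120.4 and 109 CPM in lung of WT rats (0.71 ± 0.08 in WT, edgeR adjusted p 5e-06). Uqcrh was higher by 0.95 ± 0.07 in WT CD4 cells (edgeR adjusted p 1.09e-07). The complex I assembly factor Ndufaf4 had 46.98 and 40.1 CPM in CD4 cells and 17.8, 19.5 and 12.8 CPM in lung of IL6KO rats (1.58 ± 0.21, edgeR adjusted p 4.44e-05). Each of the 3 had every CD4 library above every lung library, but they were picked as higher, so this separation adds no support. The share of all genes separated in this way was not computed. Ndufaf7, a methyltransferase that acts on complex I during assembly, was higher by 1.14 ± 0.13 in IL6KO CD4 cells (edgeR adjusted p 5.75e-06), at 33.2 and 24.5 CPM in CD4 cells and 15.4, 15.96 and 13.5 CPM in lung.

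Ndufa8 was among the lower genes, with 42.9 and 43.8 CPM in WT CD4 cells and 89.6, 91.1 and 98.3 CPM in WT lung (-0.79 ± 0.10, edgeR adjusted p 8.76e-06). Of the succinate dehydrogenase genes, Sdhc was lower in CD4 cells of both genotypes (-0.50 ± 0.07 in IL6KO and -0.35 ± 0.07 in WT, edgeR adjusted p 3.54e-05 and 0.000678). Sdha was lower in IL6KO CD4 cells (-0.35 ± 0.08, edgeR adjusted p 0.00182) and had -0.07 ± 0.08 in WT (0.421). Sdhd was higher in WT CD4 cells (0.23 ± 0.08, edgeR adjusted p 0.0145), a call lost without CD4 library 2 or lung library 1 or 2, and had 0.09 ± 0.08 in IL6KO (0.295). Sdhb passed in neither (0.02 ± 0.08 in IL6KO and -0.10 ± 0.08 in WT, edgeR adjusted p 0.814 and 0.227).

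Of the 6 tissue and hypoxia isoforms only Cox7a1 had enough counts to be tested within the CD4 table. The other 5 entered the joint fit through their lung counts, so their values are given as a description, with no test. Ndufa4l2 had 0 and 1 counts in IL6KO CD4 cells, against 33.4, 31.5 and 36.4 CPM in IL6KO lung, a ratio 793-fold lower on 1 count (95% interval 142 to 31340, covering counting error only). It had 0 counts in both WT CD4 libraries, against 27.8, 26.5 and 29.9 CPM in WT lung, and was at least 228-fold lower with a floor of 3 counts over the group. Its common relative Ndufa4 was lower as well, with log2 fold changes of -0.65 ± 0.08 in IL6KO and -0.27 ± 0.08 in WT CD4 cells (edgeR adjusted p 6.45e-06 and 0.00523). Cox4i2, the lung and hypoxia form of the subunit encoded by Cox4i1, had 0.0840 and 0.349 CPM in CD4 cells and 44.6, 38.2 and 44.4 CPM in lung of IL6KO rats. In WT rats it had 0.257 and 0.0773 CPM in CD4 cells and 31.4, 44.6 and 37.2 CPM in lung, and no CD4 library reached the lowest lung library in either genotype.

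The muscle forms Cox8b and Cox6a2 were near the floor in CD4 cells. Cox8b had 0 counts in all 4 CD4 libraries, at least 40.4-fold lower in IL6KO and at least 33.0-fold lower in WT cells than in lung. Cox6a2 had 2 counts in IL6KO CD4 cells, 97.8-fold lower than in lung (95% interval 26.9 to 809.8), and 1 count in WT CD4 cells, 211.5-fold lower (37.8 to 8370.0), again for counting error only. Cox7a1 stayed above the floor, with 1.09 and 0.697 CPM in IL6KO CD4 cells and 8.77, 9.66 and 12.7 CPM in IL6KO lung (-3.33 ± 0.28, edgeR adjusted p 2.64e-07), and 1.54 and 1.39 CPM in WT CD4 cells and 8.19, 7.72 and 6.41 CPM in WT lung (-2.03 ± 0.26, edgeR adjusted p 1.18e-05). Cox6b2, known as a testis form, had 2 counts in IL6KO CD4 cells, 56.8-fold lower than in lung (95% interval 15.6 to 471), and 0.686 and 0.155 CPM in WT CD4 cells, against 4.20, 6.02 and 3.79 CPM in WT lung. Cox7b2 and Cox8c were at 0 in every library of the 4 tables. The 14 cardiac muscle genes summed to 3.22 to 3.36 CPM in IL6KO and 4.72 to 4.799 CPM in WT cells, against 442 to 713 CPM in day 7 lung, and their part in these isoforms was not tested.

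**Figure D5:**
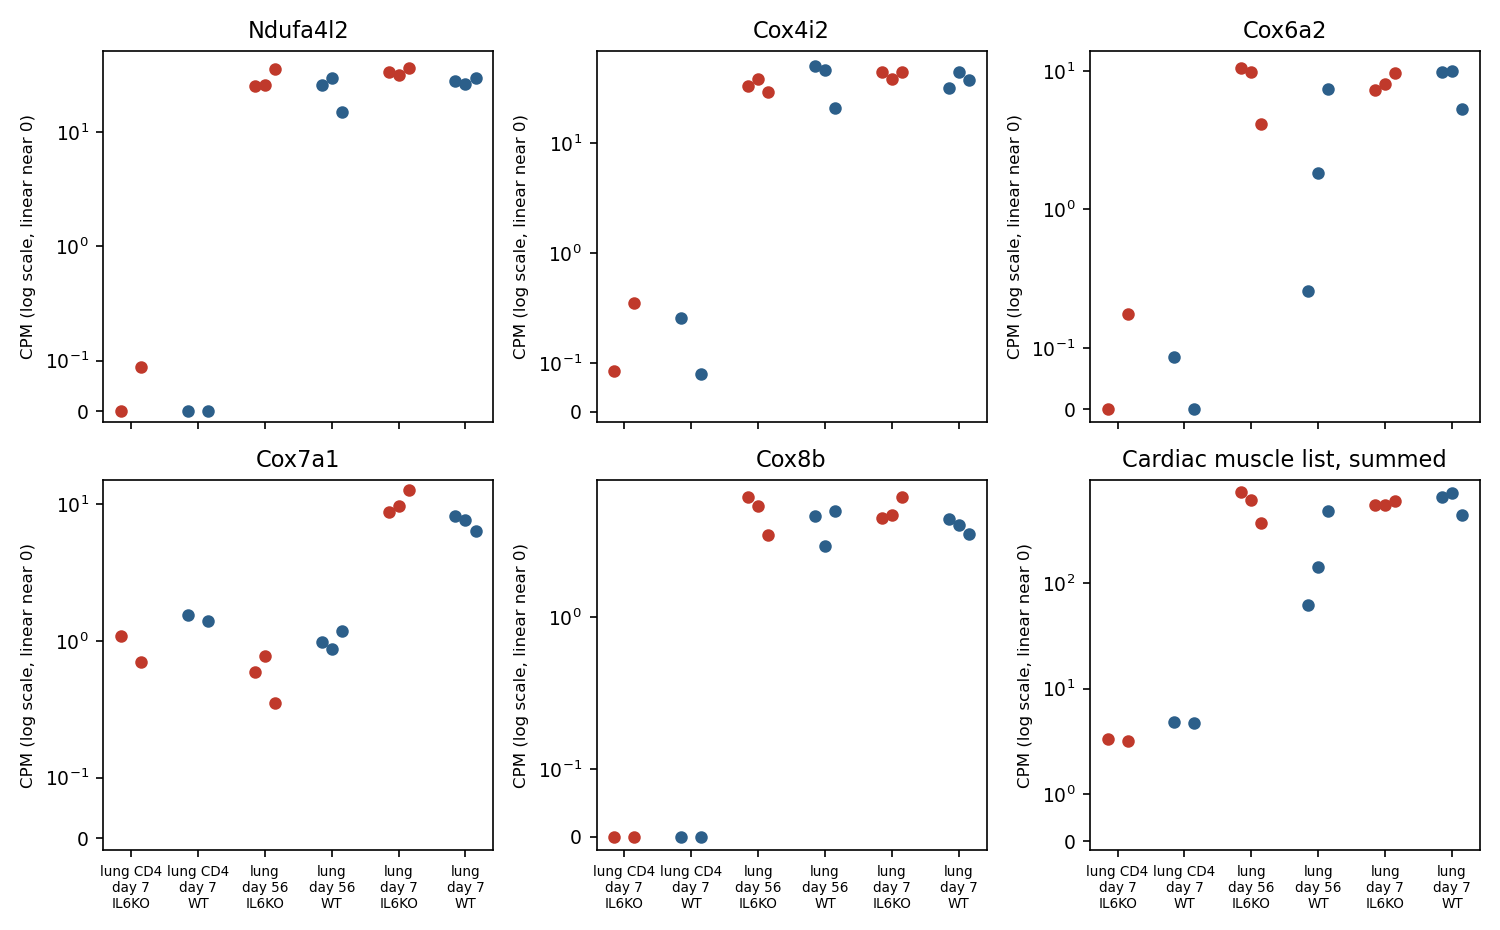
Level in CPM, on an axis that is logarithmic above and linear near 0, of 5 tissue or hypoxia isoforms and of the summed cardiac muscle list in each rat library, by group. Ndufa4l2 lies between 14.98 and 36.4 CPM in all 12 lung libraries and is at 0 or 1 count in the 4 lung CD4 libraries, and Cox7a1 is lower in all 6 day 56 than in all 6 day 7 lungs.

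Among the common isoforms, some passed the test. Cox7b was higher by 0.26 ± 0.08 in IL6KO and 0.56 ± 0.08 in WT CD4 cells (edgeR adjusted p 0.00794 and 2.25e-05). Cox8a was higher in WT CD4 cells (0.30 ± 0.12, edgeR adjusted p 0.0342), a call lost with DESeq2, with RLE scaling and without either CD4 library or without lung library 1 or 2, and had 0.04 ± 0.12 in IL6KO (0.747). Cox6a1 passed in neither genotype (-0.00 ± 0.10 in IL6KO and 0.14 ± 0.10 in WT, edgeR adjusted p 0.967 and 0.199). Cox6b1 is listed under a pair of symbols, and Cox6b1_1 was higher by 0.22 ± 0.07 in IL6KO and 0.34 ± 0.07 in WT CD4 cells (edgeR adjusted p 0.0189 and 0.0012), with reads possibly split between the copies. In IL6KO rats its call was lost without CD4 library 2 or lung library 1.

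Genes that serve the chain were also called between CD4 cells and lung, as were most genes. For all genes the shares were 36.4% higher and 43.2% lower in IL6KO, and 37.7% higher and 43.6% lower in WT cells. Of 10 cytochrome oxidase assembly genes 6 were higher in IL6KO and 7 in WT cells, with 0 lower. The metallochaperone Sco1 was higher by 1.04 ± 0.11 in IL6KO and 1.21 ± 0.10 in WT cells, and Cox17 by 0.73 ± 0.09 and 0.74 ± 0.09 in the same order (edgeR adjusted p 1.68e-06 and 3.22e-07 for Sco1, 8.77e-06 and 7.63e-06 for Cox17). Of 5 electron carriers the 3 that feed electrons from fatty acid oxidation, Etfa, Etfb and Etfdh, were lower in both genotypes, from -0.99 ± 0.12 in IL6KO for Etfb to -0.75 ± 0.11 in WT for Etfdh. Of 12 genes of mitochondrial DNA upkeep 6 were higher in each genotype, with 2 lower in IL6KO and 1 lower in WT cells. Polg2, the accessory subunit of the mitochondrial DNA polymerase, was higher by 2.45 ± 0.12 in IL6KO and 2.38 ± 0.12 in WT cells, and Tfam by 0.60 ± 0.11 in IL6KO and 1.16 ± 0.10 in WT cells. Of 7 regulators 5 were higher and 2 lower in IL6KO and 4 higher and 2 lower in WT cells, with Nrf1 higher (0.75 ± 0.08 and 0.60 ± 0.08). Only 5 of the 7 had enough counts to be tested within CD4 cells. The coactivator Ppargc1a, 1 of the lower ones, entered the joint fit through lung, so its values are a description with no test. It had 0 and 1 counts in IL6KO and 1 and 2 counts in WT CD4 cells. In lung it had 4.71, 5.56 and 5.27 CPM in IL6KO and 5.33, 3.43 and 2.86 CPM in WT rats. The changes of Etfa, Etfb, Etfdh, Polg2, Tfam and Nrf1 all had an edgeR adjusted p under 0.05. The citrate cycle had 5 higher and 4 lower of 11 in IL6KO and 7 higher and 3 lower in WT cells, and the mitochondrial ribosome 19 higher and 20 lower of 72 in IL6KO and 26 higher and 13 lower in WT cells. None of these ribosome counts exceeds the share of all genes.

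In mouse spleen, 0 of 12 mt and 0 of 87 nuclear genes differed between tdTomato-positive and tdTomato-negative CD4 cells by edgeR, where 0.00902% of all 11083 genes were called and 395 had an unadjusted p under 0.05. DESeq2 called 2 of all genes, neither of them of the chain, and 5 nuclear and 0 mt genes of the chain had an unadjusted p under 0.05. Macrophage markers summed to 47.04 to 59.05 CPM in tdTomato-positive and 19.09 to 34.27 CPM in tdTomato-negative cells, and B cell markers to 68.6 to 80.8 CPM in tdTomato-positive and 28.7 to 55.4 CPM in tdTomato-negative cells, with 0 of these genes called, and their part was not tested. Of the nuclear genes 73 of 87 had a negative fold change, as did 51.5% of all genes, with a median of -0.14, against -0.01 over all genes. All 11 common complex IV genes were negative, and 3 of 4 succinate dehydrogenase genes were positive. The 78 mitochondrial ribosome genes had a median of -0.15. The smallest p belonged to Atp5e, the epsilon subunit of ATP synthase, with 88.4, 94.997 and 75.8 CPM in tdTomato-positive and 118, 118 and 97.7 CPM in tdTomato-negative cells (-0.39 ± 0.14, edgeR adjusted p 0.998). Its fractions did not overlap, as in 8 of 92 nuclear genes, all with the tdTomato-positive fraction lower. Cox6c, a nuclear subunit of complex IV, had 158, 186 and 176 CPM in tdTomato-positive and 229, 226 and 185 CPM in tdTomato-negative cells (-0.33 ± 0.13, edgeR adjusted p 0.998). The fractions overlapped in Cox6c, but in each mouse the tdTomato-positive fraction was the lower one. Ndufa8 had -0.36 ± 0.14 (edgeR adjusted p 0.998). These tests did not pair the fractions of a mouse, and a block for the mouse changed no call of the chain.

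The mt genes of the splenic fractions overlapped. mt-Co1 had 3466, 4117 and 5254 CPM in tdTomato-positive and 5047, 5104 and 4052 CPM in tdTomato-negative cells, and mt-Nd1 had 1072, 1244 and 1264 CPM in tdTomato-positive and 1074, 1286 and 1291 CPM in tdTomato-negative cells. mt-Cytb, which was not among the genes chosen, had 1264, 1425 and 1721 CPM in tdTomato-positive and 1495, 1729.8 and 1525 CPM in tdTomato-negative cells. In mouse 3 the tdTomato-positive fraction was the higher one for mt-Co1 and mt-Cytb, and in mice 1 and 2 the tdTomato-negative fraction was. Ndufa4l2 and Cox8b were at 0 in all 6 splenic libraries, as in most lung CD4 libraries, while Cox6a2 had 4.41, 2.63 and 4.22 CPM in tdTomato-positive and 3.30, 3.01 and 3.58 CPM in tdTomato-negative cells. A count of 0 in the smallest splenic library allows up to 0.343 CPM, covering counting error only.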

How the data were processed

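Raw counts per gene, deposited by the authors in 4 tables with 1 column per library and replicates not pooled, were used for 22 libraries. The submitters' processing notes name the genome build GRCm38 for all samples, the rat ones too. No aligner, counter, strand setting or annotation is given in the sources used here. Genes and lists were chosen with earlier results of these data known, and none of them is independent evidence.

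Each table was filtered with filterByExpr, scaled by TMM and fitted across all genes in R 4.3.3 with the robust quasi-likelihood model of edgeR 4.0.16. Genes were called at a Benjamini-Hochberg adjusted p under 0.05 over all genes tested. CPM were computed from the deposited counts and their column totals and are not TMM-scaled, and levels were not compared between genes. Errors of folds are standard errors. TMM factors ran from 0.961 to 1.02 within tables. A gene with 0 counts is bounded by 3 counts, and intervals are exact ones at 95%.

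The days were joined on 20626 genes, 20230 of them shared as spelled and 396 paired through RefSeq synonyms (GRCr8), 20 of these being respiratory chain genes. CD4 cells and lung were joined over the 10 day 7 libraries. By the labels, splenic fractions that share a number share a mouse. Across genes their deviations from their fraction's mean correlated at 0.03, 0.12 and 0.12, and the fit without the block is reported. Alternatives were DESeq2 1.42.0, scaling by RLE, library sizes without mt genes, no filter on low counts, a block for the replicate number, and fits with 1 library left out. The genotype by compartment interaction was added after seeing the data. The fits were tested on simulated counts.

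Genes named were all mt genes, the tissue and common isoforms, Sdha to Sdhd, up to 6 called nuclear genes per direction by smallest p (the 3 smallest where fewer than 3 were called), and genes at 0 in 1 rat table. Genes named for day 56 without WT library 3, the short mt genes in day 7 lung, Cox8a and Mt-nd5 at day 56, and the printed promoters were chosen after their values were seen. Tables were drawn up with Python 3.11.15, pandas 2.3.3 and scipy 1.17.1, and figures with matplotlib 3.10.9.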

Additional observations from a re-analysis of the deposited data

Results flagged for a closer look

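The difference between IL6KO and WT rats was tested for being unequal in CD4 cells and in whole lung at day 7, a test added after the values were seen. By edgeR's quasi-likelihood test of the interaction, with Benjamini-Hochberg adjustment over all genes, 6 of 13 mt and 2 of 92 nuclear genes passed, where 6.42% of all 14772 genes did. Without CD4 WT library 1, 0 mt and 0 nuclear genes passed. On the log2 scale, CD4 cells minus lung, the difference was -0.65 in Mt-nd1, -0.74 in Mt-nd2 and -0.57 in Mt-nd4 of complex I, -0.67 in Mt-cyb of complex III, -0.70 in Mt-co3 of complex IV and -0.62 in Mt-atp6 of complex V. The nuclear genes were Uqcrh, at -0.47, and Cox7a2l, at -0.45. The median over all genes in this test was -0.11. The marker sums of macrophages, epithelium and smooth muscle given above differ between the genotypes in the CD4 preparations, and their part in these 8 genes was not tested. Cox7a2l passed the test of IL6KO against WT in neither compartment alone. In CD4 cells it had 242 and 262 CPM in IL6KO and 272 and 282 CPM in WT cells, and in lung it had 125, 131 and 129.7 CPM in IL6KO and 108, 118 and 111 CPM in WT rats, without overlap in either.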

How the results depend on the processing

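Every count of called genes in the 10 comparisons, for nuclear and mt genes apart, was recomputed under each alternative, and no named gene with a call changed sign. Library sizes without mt genes moved no count by over 1.5 times. DESeq2 called 1 nuclear gene in day 7 lung (3.93% of all genes), 1 nuclear gene in day 56 lung (1.2% of all), 4 mt genes between the days in WT (18.8% of all) and 1 mt gene in IL6KO (11.4% of all), and 5 nuclear genes in the genotype by compartment interaction (8.53% of all). Between the days in WT, RLE scaling called 1 mt gene (14.7% of all genes) and no filter on low counts 0.

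The replicate number as a block called 1 nuclear gene in day 7 lung (3.78% of all genes), 3 nuclear genes between the days in WT (12.1% of all), and 5 nuclear and 12 mt genes in the compartment interaction (7.95% of all). In CD4 cells the block left Mt-nd4 at an adjusted p of 0.0501 and Mt-atp8 at 0.00927 (edgeR). Rat libraries of the same number deviated from their group means with correlations of 0.06, 0.08 and 0.26 in day 7 lung, -0.16, -0.07 and -0.03 in day 56 lung and -0.00 in CD4 cells, so only number 3 in day 7 lung was above 0.1. Splenic fractions that share a mouse gave only 0.03, 0.12 and 0.12, so such correlations cannot decide whether rat numbers are pairs. The rat numbers were not taken as pairs, which leaves a shared factor of the number 3 libraries in day 7 lung untested. In spleen, where fractions of a number share a mouse, the block changed no call.

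With 1 library left out in turn, nuclear calls ran from 0 to 1 in day 7 lung, 0 to 13 in day 56 lung, 0 to 5 in the genotype by day interaction, 3 to 29 between the days in WT and 2 to 3 in IL6KO, 46 to 54 between CD4 cells and lung in WT and 51 to 58 in IL6KO, and 0 to 3 in the compartment interaction. The mt calls ran from 0 to 13 in CD4 cells, 0 to 1 in day 56 lung, 0 to 3 between the days in WT, 13 to 13 between CD4 cells and lung in WT and 9 to 12 in IL6KO, and 0 to 9 in the compartment interaction. They ran from 0 to 0 in the other counts. The cause was not tested. With 2 CD4 libraries per genotype, leaving 1 out lets the lone library borrow its spread from the others.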
